A study of Mus musculus with 12 samples.

Results

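Hemoglobin and its heme supply were followed through 5 genes in bulk RNA from 12 mouse rhabdomyosarcoma tumors. *Hba-a1* and *Hba-a2* encode the adult alpha chains, *Hbb-bs* and *Hbb-bt* encode the adult beta chains, and *Alas2* encodes the erythroid form of the first enzyme of heme synthesis. They were chosen by name, as a measure of blood in the tumor, with their levels in these tumors already known, so their differences between groups are given as descriptions without a test. All 5 were among the 38898 genes in the data and among the 17602 genes with enough reads to be tested.

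The tumors grew from Rd76-9, 1 murine rhabdomyosarcoma cell line, injected under the skin of the flank of C57Bl/6J mice aged 8 to 12 weeks, and every mouse had the same cells and host strain. Vehicle mice (tumors m1, m2 and m3) received saline and empty nanoparticles. VCR mice (m4, m5 and m6) received vincristine at 0.25 mg/kg into the peritoneum once a week. RCM1-NPFA mice (m7, m8 and m9) received 8 µg of RCM1, an inhibitor of the transcription factor FOXM1, in folic acid nanoparticles through the eye vein every other day, and VCR + RCM1-NPFA mice (m10, m11 and m12) received both. Tumors were taken whole at day 16, so host blood, vessels, fat and muscle were sequenced with the tumor cells. One label of the vehicle tumors also names RCM1, and they were assigned by their titles and the series' design.

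Red blood cells carry oxygen on hemoglobin, a tetramer of 2 alpha and 2 beta chains, each holding 1 heme. Mature mammalian red cells have no nucleus, and most of their RNA is lost with the last stages of maturation, so globin messenger RNA in a tissue comes mainly from reticulocytes and from younger erythroid cells. *Alas2* is transcribed in the same lineage, whereas its relative *Alas1* supplies heme in nearly all other cells.

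Poly-A RNA was sequenced to between 29342195 and 32108055 estimated counts per tumor, and no pair of libraries agreed within sampling noise. Of 10 rhabdomyosarcoma markers read, *Myf5* (1531 to 2080 counts), *Cdh15* (4061 to 6331 counts) and *Met* (2578 to 4205 counts) were well detected in every tumor. *Myod1* (0 to 75 counts), *Myog* (0 to 68), *Pax7* (0 to 6) and *Fgfr4* (0 to 16) were near or at 0 in several tumors. *Chrng* had 10 to 32 counts, while *Igf2* (182 to 1436) and *Des* (231 to 18197) varied widely. The markers thus did not all mark these tumors. Skeletal muscle fibre genes differed widely between tumors, with a summed level of 306 to 428 CPM in the vehicle tumors and up to 12253 CPM in m5 and 18591 CPM in m9. CPM here is the count scaled to library size, with TMM factors.

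The sequences of the 4 hemoglobin genes set what the counts can resolve. *Hba-a1* (chr11:32283672-32284486) and *Hba-a2* (chr11:32296492-32297310) lie on the plus strand, and *Hbb-bs* (chr7:103826523-103827928) and *Hbb-bt* (chr7:103812524-103813923) on the minus strand, in the RefSeq annotation of GRCm38. The 429 coding bases of the alpha pair differ at 1 base (C381T, *Hba-a1* base first), and the 444 coding bases of the beta pair at 1 base (C417T, *Hbb-bs* base first), both counted from 1 at the A of the start codon and both in exon 3. The stretches of 60 coding bases around these positions are shown with the differing base in capitals, since a read must cover it, or bases outside the coding part, to tell the copies apart.
Hba-a1 (chr11:32284313-32284372, plus strand): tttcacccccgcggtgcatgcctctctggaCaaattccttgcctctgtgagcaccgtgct
Hba-a2 (chr11:32297130-32297189, plus strand): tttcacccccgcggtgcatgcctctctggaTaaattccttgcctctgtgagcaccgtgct
Hbb-bs (chr7:103826665-103826724, minus strand): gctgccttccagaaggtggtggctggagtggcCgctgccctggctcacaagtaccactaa
Hbb-bt (chr7:103812656-103812715, minus strand): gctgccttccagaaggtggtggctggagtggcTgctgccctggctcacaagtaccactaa
The coding sequences were read from the GENCODE annotation of GRCm38. Of their windows of 31 bases, the word length that kallisto matches by default, 92.2% were shared within the alpha pair and 93.2% within the beta pair, and 0 were shared between *Hba-a1* and *Hbb-bs*. In the whole GENCODE transcripts, 192 of 669 windows of *Hba-a1* and 47 of 524 windows of *Hba-a2* were absent from the other alpha gene. For the beta pair these were 198 of 598 windows for *Hbb-bs* and 273 of 673 for *Hbb-bt*. Sums over a pair therefore rest on firmer counts than its members, and in GENCODE *Hba-a2* had the fewest windows of its own. The reads were assigned to RefSeq transcripts, which differ in length from these. They have 569 bases for *Hba-a1*, 587 for *Hba-a2*, 639 for *Hbb-bs* and 646 for *Hbb-bt*, and their windows were not counted.

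The 250 bases before the start of each gene are shown because all 5 genes moved together across the tumors. Capitals mark matches on either strand to 4 short motifs of erythroid promoters. The GATA motif was searched as GATAA, which reads TTATC on the opposite strand. The motif named CACCC reads GGGTG on that strand. The motif named CCAAT reads ATTGG there. The TATA-like motif was searched as TATAA and its reverse complement, so that a palindromic run with both counts once on each strand, as happens in *Alas2*.
Hba-a1 (chr11:32283422-32283671, plus strand): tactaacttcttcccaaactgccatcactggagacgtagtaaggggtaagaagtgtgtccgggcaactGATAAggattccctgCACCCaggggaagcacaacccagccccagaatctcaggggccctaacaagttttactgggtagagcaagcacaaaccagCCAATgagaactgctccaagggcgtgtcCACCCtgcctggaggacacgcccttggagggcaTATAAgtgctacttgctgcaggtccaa
Hba-a2 (chr11:32296242-32296491, plus strand): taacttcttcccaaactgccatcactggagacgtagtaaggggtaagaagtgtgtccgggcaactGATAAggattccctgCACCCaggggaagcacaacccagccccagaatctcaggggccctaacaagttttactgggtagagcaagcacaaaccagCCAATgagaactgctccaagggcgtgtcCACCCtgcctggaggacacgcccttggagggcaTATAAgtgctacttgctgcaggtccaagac
Hbb-bs (chr7:103827929-103828178, minus strand): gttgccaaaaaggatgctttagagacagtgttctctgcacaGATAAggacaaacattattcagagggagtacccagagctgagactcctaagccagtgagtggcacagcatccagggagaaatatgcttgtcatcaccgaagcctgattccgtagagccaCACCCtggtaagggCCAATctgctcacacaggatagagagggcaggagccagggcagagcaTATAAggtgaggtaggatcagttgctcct
Hbb-bt (chr7:103813924-103814173, minus strand): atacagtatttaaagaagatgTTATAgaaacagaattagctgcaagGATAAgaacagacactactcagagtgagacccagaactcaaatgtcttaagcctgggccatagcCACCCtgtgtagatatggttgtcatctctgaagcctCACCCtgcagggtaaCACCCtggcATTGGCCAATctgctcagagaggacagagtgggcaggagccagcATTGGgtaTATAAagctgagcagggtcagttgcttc
Alas2 (chrX:150547167-150547416, plus strand): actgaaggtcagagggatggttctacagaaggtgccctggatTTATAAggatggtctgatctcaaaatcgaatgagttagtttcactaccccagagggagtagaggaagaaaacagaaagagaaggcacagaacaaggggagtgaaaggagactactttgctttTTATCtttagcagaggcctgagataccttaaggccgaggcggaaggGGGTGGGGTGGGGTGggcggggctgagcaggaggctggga
All 4 hemoglobin promoters held all 4 motifs, as did 0.968% of 32851 mouse promoters of the same length. *Alas2* (chrX:150547417-150570622, plus strand) held 3 CACCC matches on the minus strand and 1 GATA match, but no CCAAT match in this window. Singly the motifs were common, in 22.6% (GATA), 52.0% (CACCC), 33.9% (CCAAT) and 22.8% (TATA-like) of promoters. The TATA-like match nearest the start lay within 30 to 23 bases of it in each hemoglobin gene (positions -27 to -23 in *Hba-a1*, -30 to -26 in *Hba-a2*, -29 to -25 in *Hbb-bs* and -28 to -24 in *Hbb-bt*). The alpha promoters were the same over 247 of 247 bases at a shift of 3, and the beta promoters over 127 of 249 bases. The sequences and starts are from RefSeq, on GRCm38.p6. A match is a run of letters, and binding at these places was not measured.

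**Figure D1:**
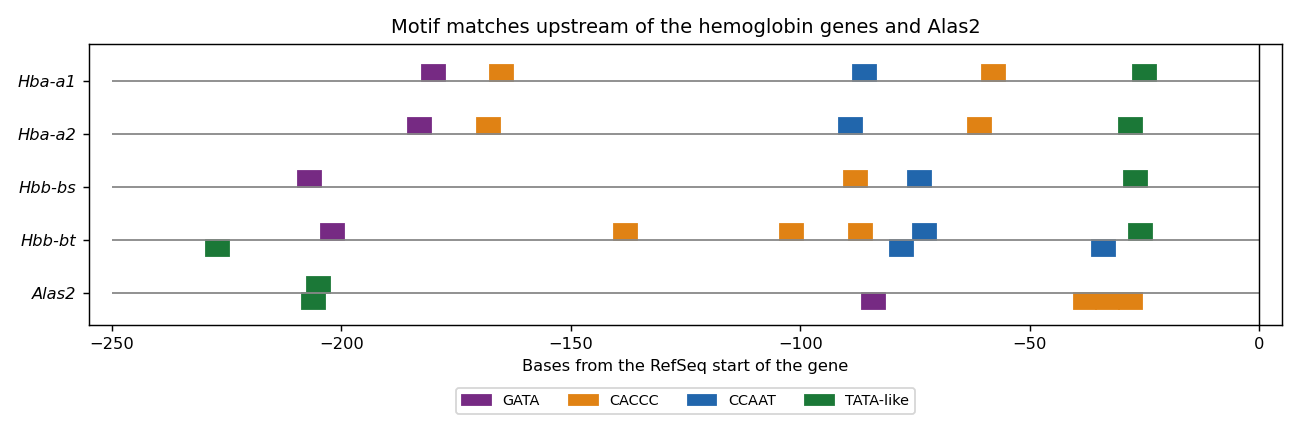
Motif matches in the 250 bases before the start of each gene (x axis, bases from the RefSeq start; boxes above a line are on the gene's strand and boxes below it on the other). The 4 hemoglobin genes share a GATA match between 209 and 178 bases before the start, and *Alas2* has its 3 CACCC matches within 40 bases of it.

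The 4 hemoglobin genes together ranged 67.1-fold between tumors and fell into 2 separate ranges. Their summed level was 230 CPM in m1, 303 CPM in m2 and 11.2 CPM in m3 among the vehicle tumors, and 405 CPM in m4, 11.9 CPM in m5 and 6.04 CPM in m6 after VCR. It was 327 CPM in m7, 160 CPM in m8 and 83.9 CPM in m9 after RCM1-NPFA, and 11.9 CPM in m10, 6.47 CPM in m11 and 18.3 CPM in m12 after the combination. The 6 tumors with the most hemoglobin, 2 vehicle, 1 VCR and all 3 RCM1-NPFA tumors, lay between 83.9 and 405 CPM. The other 6 lay between 6.04 and 18.3 CPM, and a 4.59-fold gap separated the ranges. Even in m4 the 4 genes took only 0.0404% of the library, and in m6 they took 0.000613%.

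Levels per transcript length allow the genes to be compared with each other. In m4 the authors' TPM values were 526 for *Hba-a1*, 498 for *Hbb-bs*, 307 for *Hba-a2*, 82.3 for *Hbb-bt* and 3.37 for *Alas2*. In m6 they were 14.2 for *Hba-a1*, 5.29 for *Hbb-bs*, 3.55 for *Hba-a2*, 0.594 for *Hbb-bt* and 0.297 for *Alas2*. The first 2 changed places between tumors (in m1 *Hbb-bs* had 365 TPM and *Hba-a1* 301 TPM), and in m5 *Hba-a2* (9.57 TPM) was also above *Hbb-bs* (8.39 TPM). *Hba-a2*, *Hbb-bt* and *Alas2* followed each other in this order in all 12 tumors. By its TPM, *Hba-a1* was the 238th most abundant gene in m4 and the 7688th in m6.

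*Hba-a1*, the more abundant alpha gene, was at 69.8, 94.4 and 5.72 CPM in the vehicle tumors m1, m2 and m3. It was at 140, 6.11 and 3.45 CPM in the VCR tumors m4, m5 and m6, at 101, 41.9 and 29.2 CPM in the RCM1-NPFA tumors m7, m8 and m9, and at 4.16, 3.48 and 7.38 CPM in the combination tumors m10, m11 and m12. The vehicle and VCR tumors each had at least 1 tumor in either range, so neither group was separated from any other, whereas every RCM1-NPFA tumor lay above every combination tumor. *Hba-a2* was at 40.6, 56.3 and 1.68 CPM in the vehicle tumors and at 85.0, 2.79 and 0.905 CPM in the VCR tumors. It was at 63.1, 22.4 and 18.9 CPM in the RCM1-NPFA tumors and at 2.57, 0.985 and 3.28 CPM in the combination tumors, in the same pattern.

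*Hbb-bs*, the more abundant beta gene, was at 100.05, 131 and 3.72 CPM in the vehicle tumors and at 155, 2.74 and 1.52 CPM in the VCR tumors. It was at 142, 80.0 and 30.5 CPM in the RCM1-NPFA tumors and at 4.93, 1.90 and 7.06 CPM in the combination tumors. Its range over the 12 tumors was 102-fold, wider than the 40.5-fold range of *Hba-a1*. *Hbb-bt* had the widest range, 255-fold, from 3.15 counts in m11 to 818 counts in m4. It was at 19.2, 21.1 and 0.108 CPM in the vehicle tumors and at 26.0, 0.252 and 0.173 CPM in the VCR tumors. It was at 20.9, 15.5 and 5.40 CPM in the RCM1-NPFA tumors and at 0.277, 0.102 and 0.558 CPM in the combination tumors, where it rested on 3.15 to 17.4 counts.

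*Alas2* followed the hemoglobin genes at a much lower level, with 7 to 141 counts and a 20.6-fold range. It was at 2.84, 4.50 and 0.336 CPM in the vehicle tumors and at 4.0, 0.595 and 0.325 CPM in the VCR tumors. It was at 4.66, 2.45 and 1.35 CPM in the RCM1-NPFA tumors and at 0.639, 0.226 and 0.576 CPM in the combination tumors. The same 6 tumors were high as for hemoglobin. In bulk tissue, fewer erythroid cells and less of these RNAs per cell cannot be told apart.

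**Figure D2:**
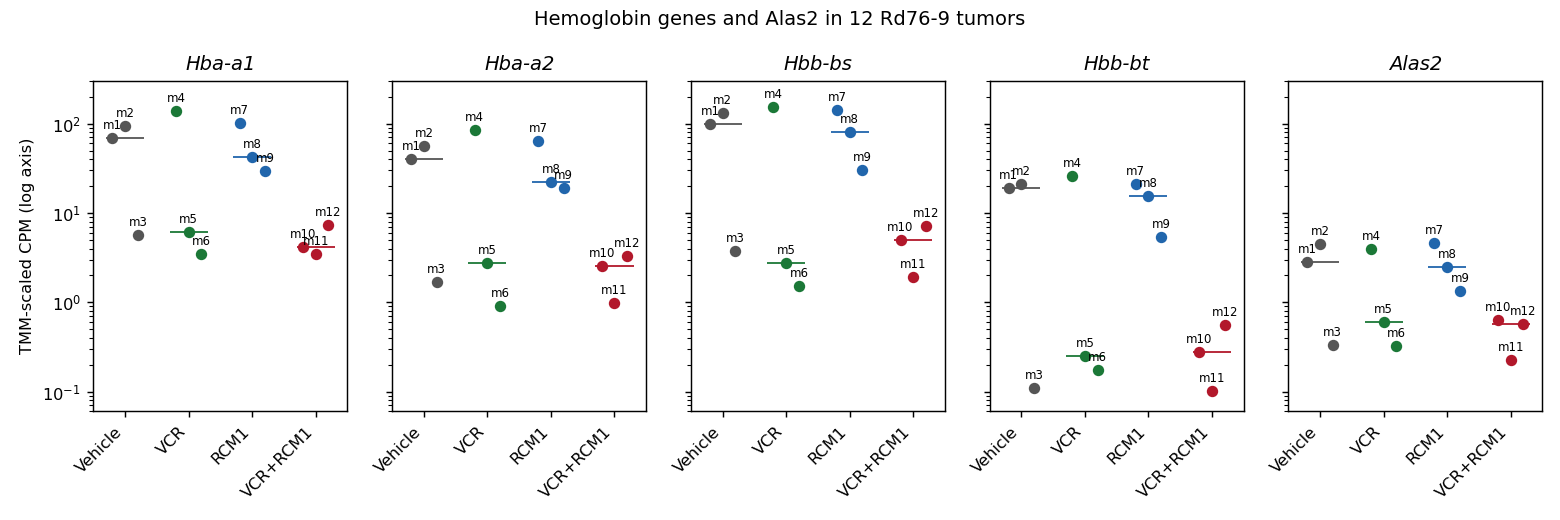
TMM-scaled CPM (y axis, log scale) of each gene in each of the 12 tumors, by group (RCM1 stands for RCM1-NPFA), with the group median as a line. The 3 RCM1-NPFA tumors lie above the 3 combination tumors for every gene, whereas 1 vehicle tumor (m3) and 2 VCR tumors (m5 and m6) lie with the combination tumors.

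The make-up of the hemoglobin RNA varied from tumor to tumor. Beta genes made up 42.7% to 59.8% of hemoglobin counts in the 6 tumors with the most hemoglobin and 25.1% to 43.6% in the other 6. The lowest share, in m5, had a 95% exact binomial interval of 20.7% to 29.9%, and the highest, in m8, one of 58.4% to 61.1%. The ratio of alpha to beta counts therefore ran from 0.673 in m8 to 2.97 in m5. The ranges overlapped for this share, since m10 (43.6%) and m12 (41.7%) of the combination were close to m9 (42.7%) and m4 (44.6%).

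*Hbb-bt* took 12.8% to 16.2% of the beta counts in the 6 tumors with the most hemoglobin and 2.63% to 9.62% in the other 6. In m3 its share was 2.63% (95% exact binomial interval 0.546% to 7.5%), in m12 it was 7.14% (4.22% to 11.2%) and in m10 it was 5.26% (2.43% to 9.76%). These 3 intervals lay below the lowest share of the upper range, whereas those of m5, m6 and m11 reached into it (16.8%, 21.0% and 13.5% at their upper ends). *Hba-a2* took 34.9% to 39.3% of the alpha counts in the upper range and 20.9% to 38.0% in the lower.

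*Alas2* had 9.86 to 16.1 counts per 1000 hemoglobin counts in the 6 tumors with the most hemoglobin and 29.9 to 53.8 in the other 6. In m4 this was 9.86 (95% exact Poisson interval 8.21 to 11.7) and in m10 it was 53.6 (33.2 to 81.9). Across the tumors *Alas2* thus varied less than hemoglobin did. The division of *Alas2* reads among its transcript forms differed too. In m1, m2, m4 and m9 all of its reads, rounded to whole reads, went to the longer curated form. In m5, m6 and m11 all 18, 10 and 7 counts went to a form shorter by 45 bases, and in m10 and m12 all 21 and 18 counts went to a predicted form as long as the first. In m3 the longer and the predicted form had 5 counts each, while m7 and m8 divided theirs between the curated forms (121 and 19.7 counts in m7, 49.2 and 27.6 in m8). These intervals cover counting error only, and neither the division of reads between near-identical transcripts nor the spread between tumors is in them.

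**Figure D3:**
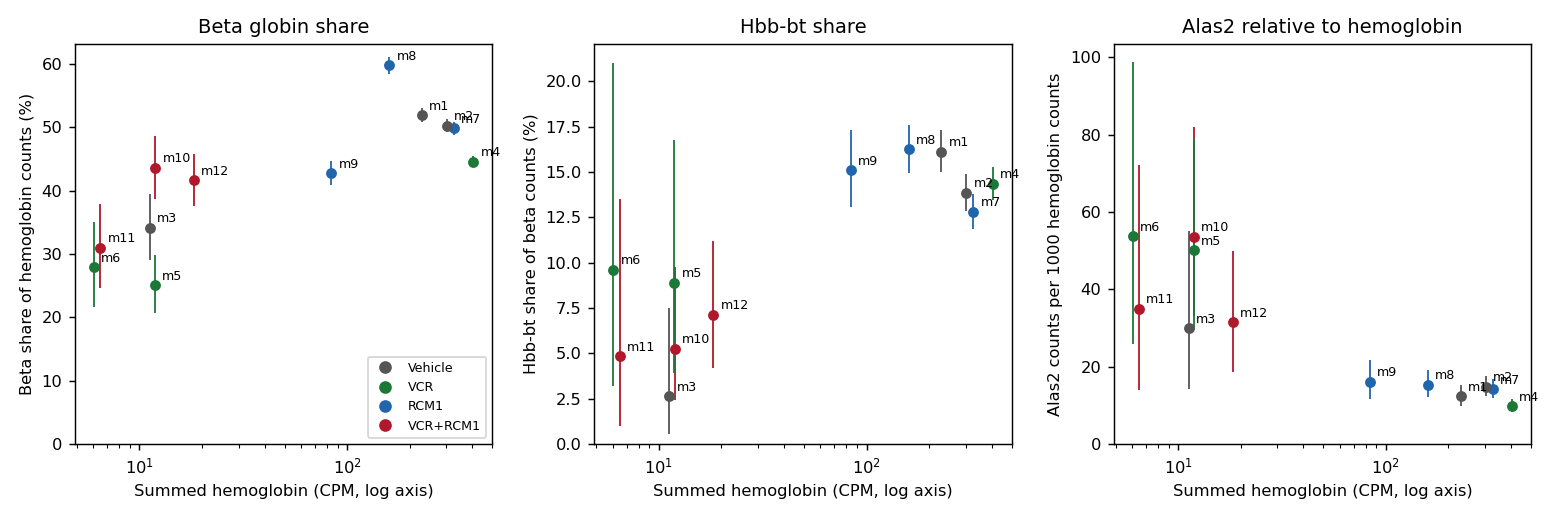
Beta share of hemoglobin counts, *Hbb-bt* share of beta counts (both in %) and *Alas2* counts per 1000 hemoglobin counts (y axes) against summed hemoglobin (x axis, CPM, log scale), 1 point per tumor, with 95% exact counting intervals. The 6 tumors above 83 CPM have *Hbb-bt* shares of 12.8% to 16.2% and at most 16.1 *Alas2* counts per 1000, and the 6 tumors below 19 CPM have lower shares and at least 29.9.

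Between groups, mean summed hemoglobin was 190 ± 125 CPM after RCM1-NPFA (SD, n = 3 tumors), 181 ± 152 CPM in vehicle tumors (SD, n = 3), 141 ± 229 CPM after VCR (SD, n = 3) and 12.2 ± 5.91 CPM after the combination (SD, n = 3). The first 3 groups in this order differed by less than their SDs. After VCR the mean rested on m4, and without it the log2 ratio to vehicle went from -0.36 to -4.34. The RCM1-NPFA and vehicle means were nearly level, with a log2 ratio of 0.070 that took either sign when a tumor was left out (-0.57 without m7, 0.66 without m2).

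Mean hemoglobin was lowest in the combination tumors, although the single lowest tumor was m6 after VCR. Their mean summed hemoglobin was 14.8-fold below vehicle, with a log2 ratio of -3.89 that ran from -4.45 (without m3) to -3.30 (without m2). It was 15.6-fold below RCM1-NPFA, with a log2 ratio of -3.96 that ran from -4.37 (without m12) to -3.32 (without m7). It was 11.5-fold below VCR, but this rested on m4: the log2 ratio of -3.53 turned to 0.45 without that tumor and was 0.0050 between the medians. In edgeR's fit of all 12 tumors the log2 fold change from vehicle to the combination was -3.49 for *Hba-a1* (SE 1.32), -3.86 for *Hba-a2* (SE 1.53), -4.08 for *Hbb-bs* (SE 1.61) and -5.45 for *Hbb-bt* (SE 1.95). Vehicle tumor m3 lay among the combination tumors for all of these genes, so the groups overlapped. *Alas2* differed by a log2 fold change of -2.40 (SE 1.01), with m3 again inside the range of the combination tumors.

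From RCM1-NPFA to the combination, the log2 fold changes were -3.51 for *Hba-a1*, -3.94 for *Hba-a2*, -4.18 for *Hbb-bs*, -5.49 for *Hbb-bt* and -2.54 for *Alas2*, with SEs of 1.32, 1.53, 1.62, 1.95 and 1.01. Here all 5 genes were lower in every combination tumor than in every RCM1-NPFA tumor. The same held for 471 of the 17602 tested genes (2.68%), and as the 5 genes were chosen with these levels known, nothing is read from their count. Against VCR the values were -3.31, -3.70, -3.52, -4.83 and -1.76 in the same order of genes (SEs of 1.31, 1.52, 1.58, 1.93 and 1.01), and the groups overlapped.

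Either drug alone gave small mean differences with large errors. After RCM1-NPFA the log2 fold changes from vehicle lay between 0.02 (*Hba-a1*, SE 1.16) and 0.14 (*Alas2*, SE 0.90). After VCR they lay between -0.64 (*Alas2*, SE 0.92) and -0.15 (*Hba-a2*, SE 1.31). The values of these genes in either group overlapped those of vehicle, whose tumors lay in both ranges. The interaction term, which sets the combination against both drugs' separate log2 changes added together, was -3.33 for *Hba-a1* (SE 1.73) and -1.90 for *Alas2* (SE 1.35). Comparisons with vehicle share the same 3 vehicle tumors.

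Several genes that mark the red cell and its precursors were close to the limit of detection. *Slc4a1*, the anion exchanger of the red cell membrane, had 0 to 4 counts per tumor, 18 in all in the 6 tumors with the most hemoglobin and 1 in the other 6. The erythroid transcription factors *Gata1* and *Klf1* had 0 to 5 and 1 to 7 counts, and *Kel* and *Cldn13* had 0 counts in all 12 tumors, which allows up to 3 counts in each. Other genes on the lists were well detected, such as *Epb41*, protein 4.1 of the membrane skeleton (1577 to 2132 counts). *Epor*, the erythropoietin receptor, had 39 to 79 counts, with a log2 fold change of -0.30 in the combination (SE 0.28, edgeR adjusted p = 0.813).

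The other listed globin genes of the alpha and beta loci were nearly silent. *Hbb-bh1*, *Hbb-bh2*, *Hbb-y*, *Hba-x*, *Hbq1a* and *Hbq1b* had at most 3 counts in any tumor. *Hbb-b1* and *Hbb-b2*, which RefSeq places on an alternate haplotype of the beta locus, had at most 24.0 and 2.02 counts, the former in m4. *Ahsp*, which encodes the chaperone of free alpha chains, was not analysed here.

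Around the hemoglobin genes, 5 erythroid lists were read: red cell membrane and surface, heme synthesis, erythroid regulators, other globins, and red cell enzymes and maturation. They name 67 genes, of which 46 were tested. In VCR against vehicle 3 of the 46 passed edgeR's adjusted p of 0.1, all higher, beside 5.72% of all 17602 genes. *Tmem14c*, a transporter of a heme precursor into the mitochondrion, was at 49.4, 53.7 and 50.6 CPM in vehicle tumors and at 67.7, 71.6 and 58.8 CPM after VCR. Every VCR tumor was above every vehicle tumor, and *Tmem14c* rose by a log2 fold change of 0.37 (SE 0.080, edgeR adjusted p = 0.0712). *Cygb*, which encodes cytoglobin, a globin of fibroblast-like cells, was at 5.83, 3.66 and 3.13 CPM in vehicle tumors and at 9.99, 15.1 and 8.29 CPM after VCR. It rose by 1.40 (SE 0.26, edgeR adjusted p = 0.0651).

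The third gene, *Mb*, encodes myoglobin, the oxygen store of muscle. It was at 0.617, 0 and 0 CPM in vehicle tumors and at 9.52, 26.6 and 12.7 CPM after VCR, with edgeR's log2 fold change at 6.22 (SE 1.38, adjusted p = 0.0726) against vehicle tumors that were mostly at 0. Muscle fibre genes, a list that *Mb* also belongs to, moved with it, from 306 to 428 CPM in vehicle tumors to 1952 to 12253 CPM after VCR, and their part in the result was not tested. None of the 3 calls was stable: 0 of the 46 genes passed without m2, m4, m5 or m11, when 0, 0, 0 and 1 of all genes passed.

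In the other comparisons 0 of the 46 genes passed in edgeR, as did 0% of all genes. At an unadjusted p under 0.05 there were 7 in RCM1-NPFA (beside 9.78% of all genes) and 5 in the combination (7.31%) against vehicle, 1 in the combination against VCR (5.26%), 2 in it against RCM1-NPFA (2.07%) and 9 in the interaction (13.8%). DESeq2 called 7 after VCR, beside 15% of all genes it tested, and 3 after RCM1-NPFA (*Cygb*, *Mb* and *Tmod1*, higher), beside 1.58%. It called 0 for the combination against vehicle (0.393% of all genes), VCR (0.256%) or RCM1-NPFA (0%), and 3 for the interaction (the same 3 genes, lower), beside 2.73%.

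In the combination the lists had medians near that of all genes, apart from the other globins (0.87, 3 tested genes). The 12 genes of heme synthesis had a median log2 fold change of 0.07 in the combination and 0.15 after VCR, beside 0.00 for all tested genes. Their summed level ran from 403 to 466 CPM over the 12 tumors, and *Alas1*, the form of the first enzyme used outside the erythroid lineage, from 19.6 to 28.4 CPM. *Fech*, which inserts iron into the ring, ran from 49.2 to 57.9 CPM, where *Alas2* differed 20.6-fold. The 7 tested regulators had a median of -0.02 in the combination, with *Ldb1*, a cofactor of GATA1 complexes, the most abundant (log2 fold change -0.05, SE 0.13, edgeR adjusted p = 0.948). The 13 tested red cell enzyme and maturation genes had a median of -0.00066, and *Gpx1*, a peroxidase found in most cells, was the most abundant of them (0.14, SE 0.11, edgeR adjusted p = 0.789).

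The 11 tested membrane genes had a median of 0.05 in the combination, and their most abundant gene per length, *Epb41* (protein 4.1), had -0.07 (SE 0.089, edgeR adjusted p = 0.871). Their highest summed levels, 186 CPM in m9 and 140 CPM in m5, were in the tumors with the most muscle fibre RNA. *Ank1*, *Sptb* and *Tmod1*, parts of the membrane skeleton that muscle also makes, reached 56.0, 21.3 and 19.9 CPM in m9, which had 83.9 CPM of hemoglobin. In m4, with 405 CPM of hemoglobin, they were at 14.4, 5.87 and 5.77 CPM. Their levels thus ordered the tumors differently from hemoglobin.

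**Figure D4:**
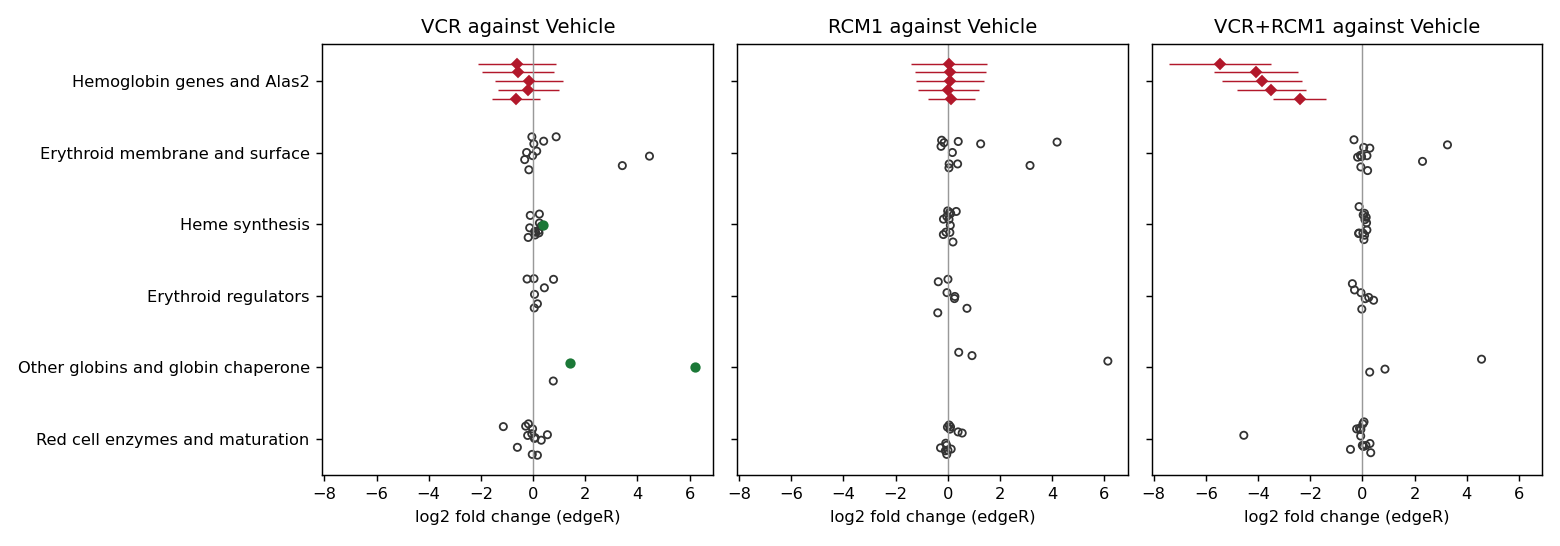
edgeR log2 fold changes (x axis) against vehicle after VCR, RCM1-NPFA and the combination, for the 4 hemoglobin genes and *Alas2* (diamonds with SE bars, a description without a test) and for the tested genes of the 5 erythroid lists (circles, filled where the adjusted p was under 0.1). The diamonds lie between -5.45 and -2.40 in the combination, while the 5 lists have medians near 0 there except the other globins (0.87, 3 genes).

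Other components of blood and vessels were read beside hemoglobin through 6 lists. Platelet genes summed to 29.6 to 57.6 CPM per tumor (range of vehicle 29.6 to 35.1, combination 31 to 47.7), with 0 of 7 tested genes passing in any comparison. *Pf4*, platelet factor 4, had a log2 fold change of 0.31 in the combination (SE 0.26, edgeR adjusted p = 0.795). Neutrophil genes summed to 32.7 to 80.6 CPM, and 0 of 7 tested genes passed. The sum was highest in m3, a tumor with little hemoglobin, where *Mmp9* alone gave 62.3 CPM. By the mean of log2 levels the list was instead highest in m2, a tumor with much hemoglobin (0.14, beside -0.50 in m3). *Mmp9*, a secreted protease, led this list and had -0.56 in the combination (SE 0.36, edgeR adjusted p = 0.750).

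Endothelial genes summed to 230 to 327 CPM in vehicle tumors and to 324 to 342 CPM in combination tumors. After VCR 3 of 12 rose, beside 5.72% of all genes that passed, with *Esam* at 0.74 (SE 0.15, edgeR adjusted p = 0.0694), *Egfl7* at 0.83 (SE 0.20, adjusted p = 0.0761) and *Tie1* at 0.81 (SE 0.19, adjusted p = 0.0763), and 0 passed in the other comparisons. After VCR 0 of the 12 passed at a threshold of 0.05 or without m2, m4, m5 or m11, when 9, 0, 0, 0 and 1 of all genes passed. Without m12, 1 of the 12 passed, beside 243 of all 18006 genes tested there. *Plvap*, the diaphragm protein of fenestrated vessels, had 0.31 in the combination (SE 0.19, edgeR adjusted p = 0.742). The combination tumors lay near the upper end of the vehicle range of vessel genes or above it. So did the RCM1-NPFA tumors (315 to 383 CPM) and the VCR tumors (325 to 434 CPM). By CD31 staining of sections, a measure of protein, the paper reports less tumor angiogenesis after the combination than in vehicle. The vehicle tumor with the least vessel gene RNA, m2 at 230 CPM, had 303 CPM of hemoglobin. The part of vessels in the hemoglobin levels was not tested.

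Of the 13 tested genes that clear hemoglobin and heme, 0 passed in any comparison. *Hmox1*, heme oxygenase, was at 77.0 to 263 CPM over the 12 tumors, with a log2 fold change of 0.06 in the combination (SE 0.42, edgeR adjusted p = 0.984). *Cd163*, the macrophage receptor for haptoglobin-bound hemoglobin, had 51.3 to 217 counts and 0.25 (SE 0.38, adjusted p = 0.906). *Hpx*, hemopexin, had 6 to 18 counts. The ferritin gene *Ftl1* was the most abundant of them.

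Because the tumors fell into 2 ranges of hemoglobin, no correlation with a list was taken over all 12. Within each range of 6 tumors, summed hemoglobin was compared with the platelet, neutrophil, endothelial, muscle fibre, adipocyte and clearance lists, 12 relations in all. None passed: the strongest, with muscle fibre genes in the upper range, had r = -0.53 (exact permutation p = 0.293) and rho = -0.37 (exact permutation p = 0.497), and r = 0.72 without the 2 tumors farthest from the median. After Benjamini-Hochberg adjustment over the 12 relations every exact permutation p for r was 0.867. In 6 tumors only strong relations could pass. The ranges were split on hemoglobin itself, which left it a 4.83-fold spread in the upper range and 3.03-fold in the lower. These tests therefore cannot decide whether a list goes with hemoglobin across all 12 tumors.

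**Figure D5:**
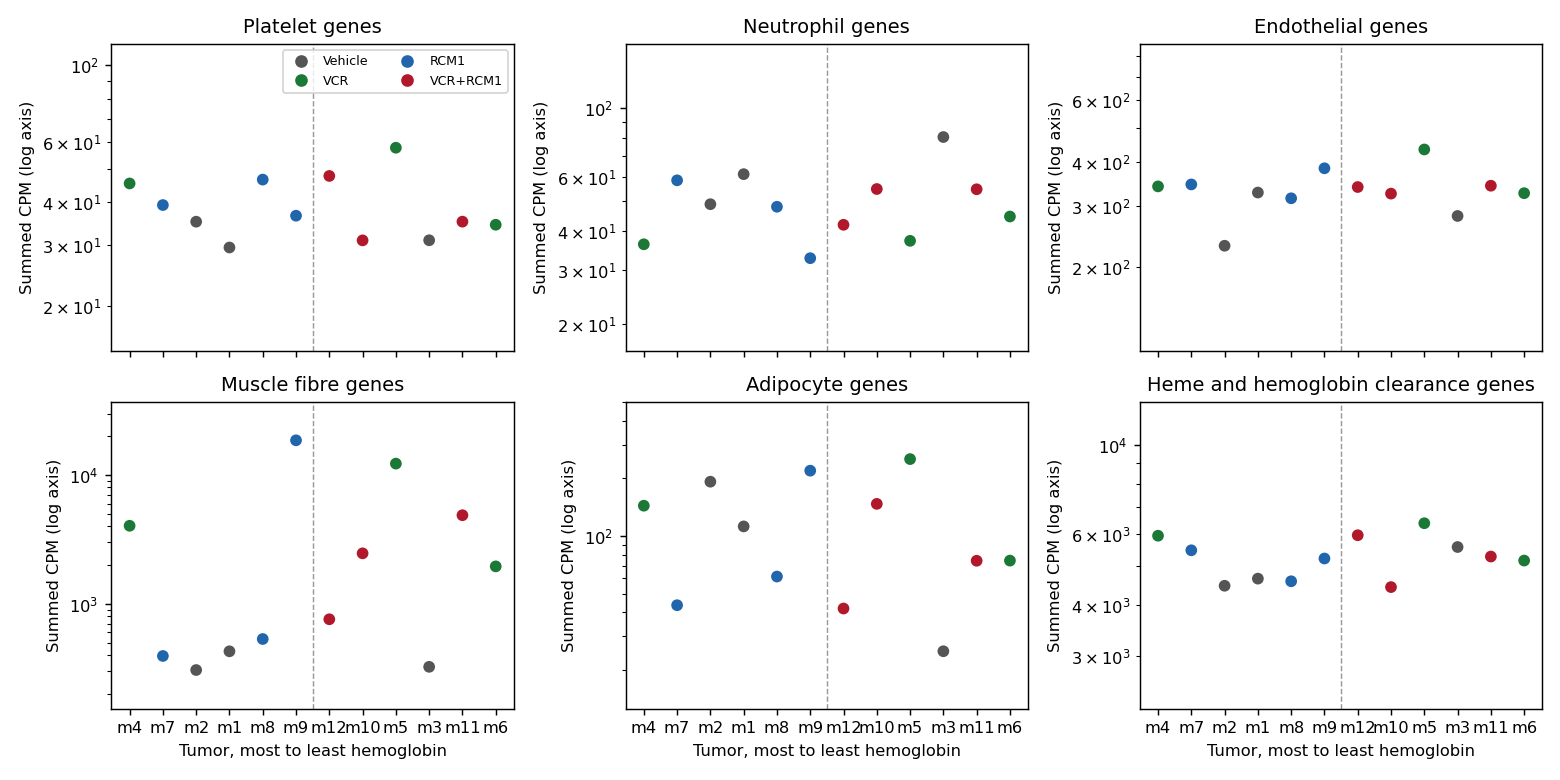
Summed CPM (y axes, log scale) of 6 gene lists in the 12 tumors, placed from the most to the least hemoglobin (x axis), with a dashed line at the gap between the 2 ranges and colors for the groups (RCM1 stands for RCM1-NPFA). Hemoglobin has a 4.59-fold gap at the line, whereas in each of the 6 lists the tumors on its 2 sides overlap. From m9 to m12, the tumors beside the line, muscle fibre genes went from 18591 to 758 CPM and adipocyte genes from 220 to 41.8 CPM.

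The genes whose pattern over the 12 tumors was most like that of hemoglobin came far behind *Alas2*. Pearson's r of log2 CPM with log2 summed hemoglobin was 0.98 for *Alas2*. Of 14034 genes with a mean of at least 1 CPM, the highest was *Ribc1*, at 0.80, followed by *Mettl8* (0.70), *Tcaf2* (0.69), *B3gat2* (0.69) and *Arhgap26* (0.68). The others of the first 10 were *Gm10516*, *Tfrc*, *Gm12359*, *Pank1* and *Tor4a*, down to 0.67. *Ribc1* had 1.78 to 2.15 CPM in the 6 tumors with the least hemoglobin and 2.14 to 2.75 CPM in the others, a small difference beside that of hemoglobin. *Tfrc*, the transferrin receptor that brings iron into cells (r = 0.68), had 50.7 to 90.5 CPM in the 6 tumors with the least hemoglobin and 70.6 to 158 CPM in the others. These values of r are over 12 tumors that form 2 ranges and were ranked among many genes, so they are descriptions.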

How the data were processed

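The authors made poly-A libraries with a stranded kit that their methods call non-stranded, and assigned reads to RefSeq transcripts of GRCm38 with kallisto, whose version is not given in the sources used here. The authors deposited an estimated count and a TPM value for each of 120299 transcripts. Estimated counts are not normalized, and reads shared by transcripts are divided between them. Without strand, overlapping genes on opposite strands cannot be told apart.

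Both values were summed per gene, and counts were rounded. Genes were filtered with filterByExpr (minimum count 10), scaled by TMM and compared by quasi-likelihood in edgeR 4.0.16 (R 4.3.3), with all 12 tumors in 1 fit of 4 groups, Benjamini-Hochberg adjustment over all 17602 genes and a threshold of 0.1. Fits on simulated counts of VCR against vehicle (17373 genes) found 81% of log2 changes of 1 and 94% of changes of 2, with 6.91% false calls. The changed genes were drawn from those above 1 CPM, and each gene was simulated independently. These rates therefore need not hold for the tumors, where genes such as those of muscle fibres varied together. The sources used here do not say whether each tumor came from its own mouse, so p-values measure the spread between these samples.

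The 5 genes and all lists were chosen with earlier results of these data known. Named genes are the 5 genes, in each list the gene with the highest mean TPM and the 2 with the smallest adjusted p among those past the threshold, the 10 genes most like hemoglobin, and a fixed set of globin, erythroid and heme genes. Not every gene of this set is reported here. Genes named to show which were called under an alternative, *Kel*, *Cldn13*, *Ank1*, *Sptb* and *Tmod1*, and those among the other observations were added after their values were seen, as was the third endothelial gene. Correlations over 12 tumors had been planned and were replaced by correlations within each range of 6, over all 720 orders, on log2 of summed CPM with a pseudocount of 0.1.

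Alternatives were DESeq2 1.42.0 (size factors, and the Wald test on the filtered genes), no filter, limma-voom (limma 3.58.1), a threshold of 0.05, TPM, medians, a pseudocount of 1, mean log2 levels of lists, hemoglobin left out of library sizes, and leaving out each tumor. Promoters and motifs were read from RefSeq, and coding sequences from the GRCm38 genome, in Python 3.11.15 with pandas 2.3.3, numpy 2.4.6 and scipy 1.17.1. Figures were drawn with matplotlib 3.10.9. The labels give no batch and no pairing.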

Additional observations from a re-analysis of the deposited data

How the results depend on the processing

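The deficit of hemoglobin and *Alas2* in the combination against vehicle kept its sign under TPM, DESeq2 size factors, medians and hemoglobin left out of library sizes, and without each tumor (log2 ratios of -4.45 to -3.30 for hemoglobin and -2.93 to -1.72 for *Alas2*). For the single drugs it did not. With medians in place of means, the VCR ratio moved to -4.27 for hemoglobin and -2.25 for *Alas2*, and the RCM1-NPFA ratio turned to -0.52 and -0.21. With TPM the RCM1-NPFA ratio of hemoglobin turned to -0.014. Leaving out 1 tumor gave -4.34 (without m4) to 0.23 (without m2) for hemoglobin after VCR and -2.48 to 0.047 for *Alas2* (the same tumors). After RCM1-NPFA it gave -0.57 (without m7) to 0.66 (without m2) and -0.43 to 0.83. Against RCM1-NPFA the deficit in the combination kept its sign under all of these (-4.37 to -3.32 for hemoglobin and -2.89 to -1.99 for *Alas2* without each tumor). Against VCR it did not, in comparisons added after seeing the data: medians gave 0.0050 and -0.047, and leaving out 1 tumor gave -4.09 (without m6) to 0.45 (without m4) for hemoglobin and -2.26 to 0.063 for *Alas2* (the same tumors). The cause was not tested.

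Of the 46 erythroid list genes, the 3 called after VCR became 7 with the DESeq2 Wald test (2285 of all genes against 1006 in edgeR). They became 0 at a threshold of 0.05 (9 of all genes). When 1 tumor was left out they became 0 (without m2, m4, m5 or m11) to 6 (without m6). Of all genes, 0, 0, 0 and 1 passed without m2, m4, m5 and m11, and 2012 of 18044 passed without m6. The Wald test called 3 after RCM1-NPFA and 3 in the interaction. Without m5 and m9, the tumors with the most muscle fibre RNA, a choice made after seeing the data, 3 genes were called in the combination against vehicle (*Mb*, *Sptb* and *Tmod1*, all higher). Beside them, 138 of all 17870 genes tested there were called. No other alternative called any list gene outside VCR against vehicle.

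Of the 12 correlations within 6 tumors, 9 changed sign when 1 tumor was left out. In the upper range, leaving out 1 tumor gave r from -0.17 to 0.35 for platelet genes, -0.38 to 0.86 for neutrophil genes, -0.59 to 0.033 for endothelial genes, -0.91 to 0.49 for muscle fibre genes, -0.47 to 0.34 for adipocyte genes and -0.16 to 0.73 for clearance genes. In the lower range it gave -0.39 to 0.16 for neutrophil, -0.10 to 0.23 for endothelial and -0.29 to 0.24 for adipocyte genes. The 3 that kept their sign were in the lower range, with 0.23 to 0.57 for platelet, -0.59 to -0.072 for muscle fibre and 0.13 to 0.79 for clearance genes. With mean log2 levels, r turned to 0.40 for adipocyte genes in the upper range and 0.71 for neutrophil genes in the lower. With TPM it turned to 0.32 for neutrophil and -0.082 for endothelial genes in the lower range. No paired analysis was possible because the groups share no replicate number.

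In the 6 tumors with the least hemoglobin, *Hbb-bt* and *Alas2* rested on 3.15 to 21 counts, which limits their shares.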

Other observations

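*Hp*, which encodes haptoglobin, the plasma carrier of free hemoglobin that fat also makes, ordered the tumors differently from the hemoglobin genes. It had 786, 2388 and 38 counts in the vehicle tumors, 1387, 679 and 499 after VCR, 75, 146 and 98 after RCM1-NPFA and 1099, 80 and 149 after the combination. *Hp* had at most 146 counts in the RCM1-NPFA tumors, although hemoglobin was high in all of them. From vehicle to RCM1-NPFA, *Hp* differed by a log2 fold change of -3.37 (SE 1.20, edgeR adjusted p = 0.437). The 10 adipocyte genes had a median log2 fold change of -3.04 in the same comparison, and 5 of them had an unadjusted p under 0.05, beside 9.78% of all genes. In edgeR 0 of the 10 passed in any comparison, and their part in the *Hp* values was not tested. *Fabp4*, a fatty acid carrier and the most abundant of them, had a log2 fold change of -0.47 (SE 0.60, edgeR adjusted p = 0.849). Summed adipocyte genes lay between 43.5 and 220 CPM after RCM1-NPFA, and *Car3*, a carbonic anhydrase that muscle also makes, gave 168 CPM of the highest sum, in m9.

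Of 12 tested muscle fibre genes, a list that shares *Mb* with the other globins, 5 rose after VCR, beside 5.72% of all genes that passed. None of the 12 passed at a threshold of 0.05 or without m2, m4, m5 or m11, when 9, 0, 0, 0 and 1 of all genes passed. All 12 passed without m9, beside 1407 of all 17985 genes tested there. *Acta1*, skeletal actin, was the most abundant, with a log2 fold change of 7.37 (SE 2.08, edgeR adjusted p = 0.0946).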
